A study of Caenorhabditis elegans with 2 samples.

Results

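The genes described here are 4 markers of neuronal identity, rgef-1, unc-119, maco-1 and unc-33, taken by name from the 19973 protein-coding genes of chromosomes I to V and X. The data are ChIP-seq peaks, regions recovered by chromatin immunoprecipitation and then sequenced, of the forkhead transcription factor FKH-10 in whole Caenorhabditis elegans at the L1 larval stage, with both sexes pooled and age unknown. There was 1 group of 2 biological replicates, from separate biosamples of strain OP337, and no second condition. Animals of this strain carry the mutation unc119(ed3) and the insertion wgIs377, which holds fkh-10 fused to TY1, EGFP and FLAG together with an unc119 rescue. The unc-119 gene is therefore both one of the 4 genes and the marker of the transgene, and the labels give neither the extent nor the copy number of the rescue fragment. The labels do not name the promoter that drives the fusion. Whole animals were used, so a peak cannot be assigned to neurons or to any other cell type, and a peak is not a measure of expression.

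Pan-neuronal genes are transcribed in essentially every neuron, whatever transmitter it uses, and their products serve functions that all neurons share. In C. elegans their expression depends on many redundant inputs, among them homeodomain factors of the CUT family. The 4 genes act in different processes. The product of rgef-1 is a guanine nucleotide exchange factor for Ras-type GTPases, and its promoter is a common driver of pan-neuronal transgenes. The unc-33 gene encodes a collapsin response mediator protein (CRMP) that organises the microtubules of axons and dendrites. The product of unc-119 binds lipid-modified proteins as a chaperone and, with UNC-33 and the ankyrin UNC-44, takes part in anchoring neuronal microtubules. The maco-1 gene encodes macoilin, a membrane protein of the endoplasmic reticulum that acts in neuronal excitability.

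Each gene was examined from 5000 bp upstream of its start to its end, and a peak counted when its summit lay in that window. The 6 optimal summits in the 4 windows, those of the authors' set thresholded by irreproducible discovery rate (IDR), were the basis of the description. The sequences below reach 50 bp to each side of the optimal summits of 3 of the genes and are shown because they are the bases on which the peaks are centred. They come from the RefSeq copy of WBcel235 (ce11) and are written 5′ to 3′ on the strand of the gene. Capitals mark the word ATCGAT and a word of 10 bases, GCTTCTCTTC, that recurs between genes, both described further on. The sequence at maco-1 is not printed.
rgef-1, 2126 bp upstream, chrV:9563750-9563850, minus strand: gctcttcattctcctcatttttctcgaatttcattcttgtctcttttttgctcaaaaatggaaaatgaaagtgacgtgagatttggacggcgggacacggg
rgef-1, 357 bp upstream, chrV:9561981-9562081, minus strand: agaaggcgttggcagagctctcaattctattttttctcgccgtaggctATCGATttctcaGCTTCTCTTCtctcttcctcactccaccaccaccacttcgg
unc-119, 705 bp downstream, chrIII:10903296-10903396, plus strand: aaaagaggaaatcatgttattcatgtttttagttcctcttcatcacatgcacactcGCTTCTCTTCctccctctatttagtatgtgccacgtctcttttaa
unc-33, 2680 bp downstream, chrIV:3519516-3519616, plus strand: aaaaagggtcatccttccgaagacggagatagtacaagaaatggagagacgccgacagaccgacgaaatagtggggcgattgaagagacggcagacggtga
unc-33, 4294 bp downstream, chrIV:3521130-3521230, plus strand: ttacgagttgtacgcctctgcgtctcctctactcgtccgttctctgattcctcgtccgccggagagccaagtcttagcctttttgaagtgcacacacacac

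All 4 genes had at least 1 optimal summit in their window, with 2 each at rgef-1 and unc-33 and 1 each at unc-119 and maco-1. Over all protein-coding genes, 3300 of 19973 windows (16.5%) held an optimal summit. The windows of the 4 genes are long, from 10648 to 14717 bp against a median of 7027 bp, and among the 1547 genes with windows in that range the share was 28.9%. Windows with 2 or more optimal summits made up 3.26% of all genes and 7.89% of those with windows of similar length. Pooled summits of any signal were present at all 4 genes and at 70.7% of all genes. With the highest-signal peaks of each replicate alone, as many as the optimal set has, all 4 genes again had a summit, against 15.9% of all genes in replicate 1 and 16.7% in replicate 2. Optimal summits occurred at 0.12 per kb of the 4 windows and at 0.03 per kb over the windows of all genes. The genes were chosen by name, with earlier results of these data known, so their count is not independent of the peaks. With 1 group and peak lists without read counts, these shares are a description and no test was made. Sequencing depth is unknown.

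**Figure D1:**
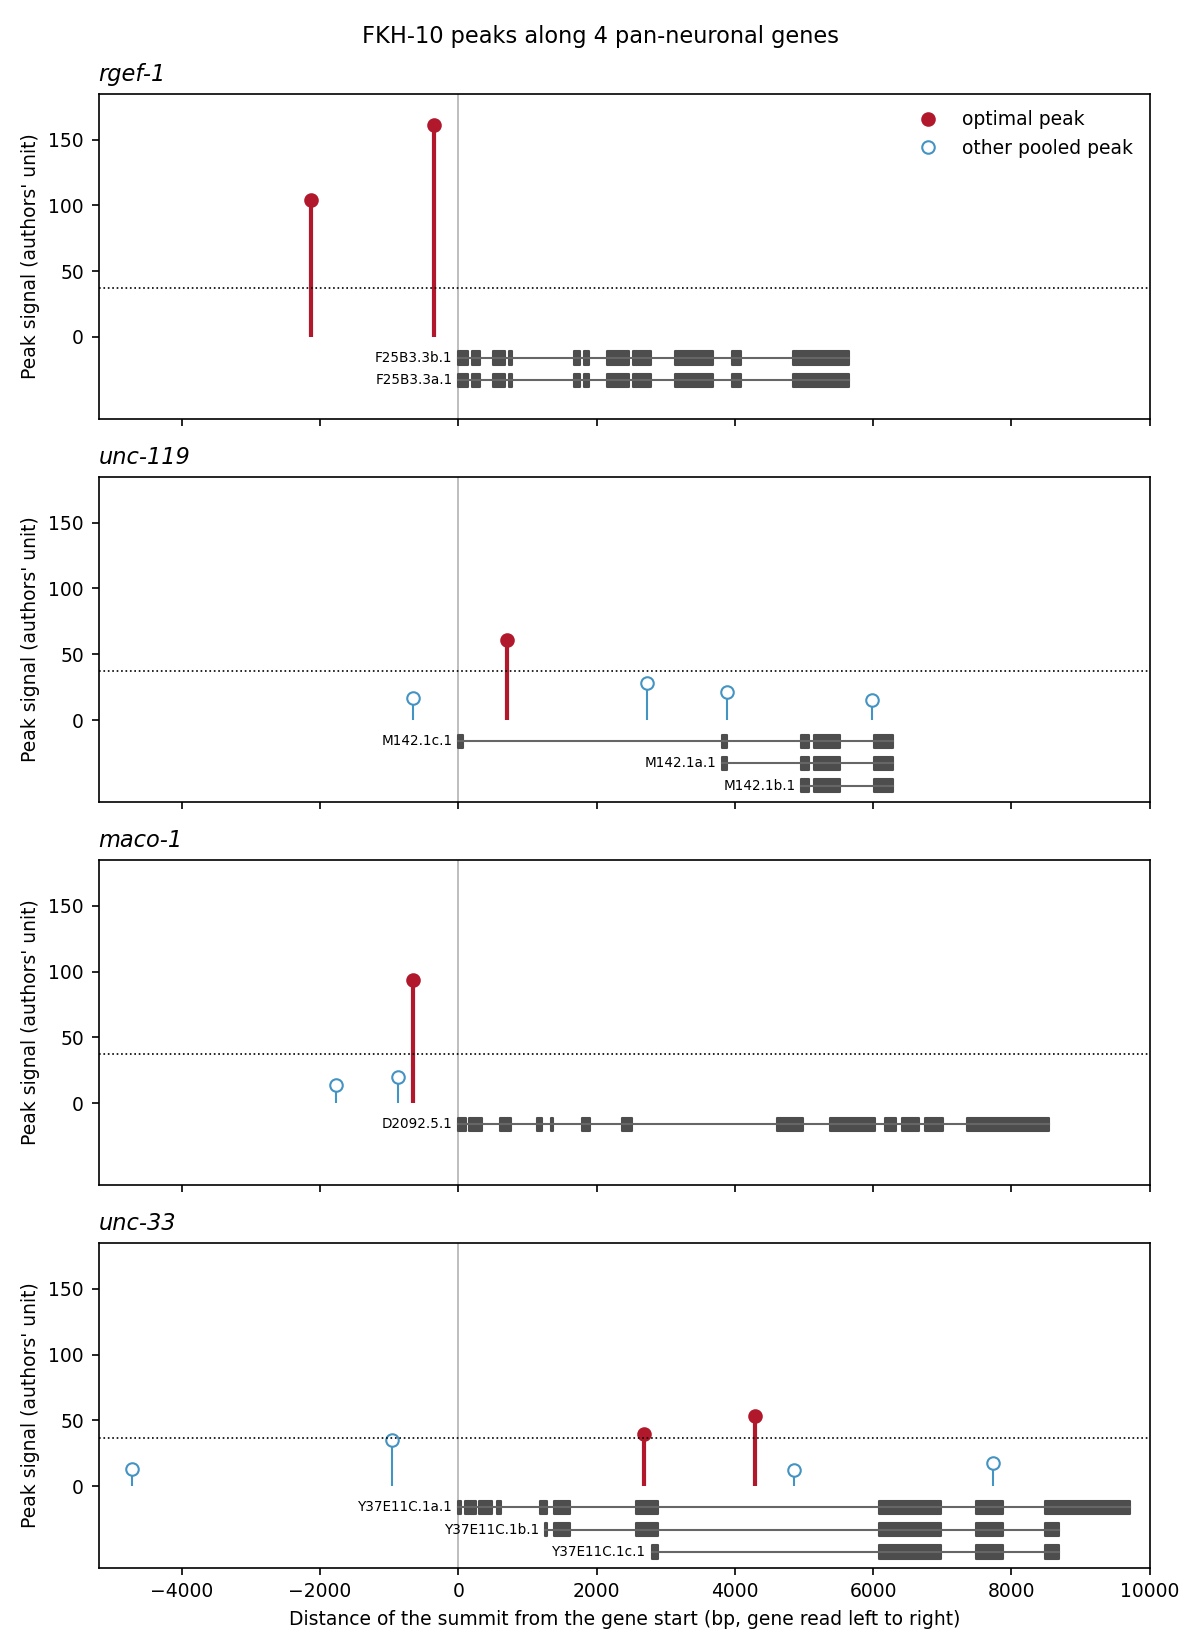
Summits of pooled peaks along rgef-1, unc-119, maco-1 and unc-33, by distance from the gene start (bp) and by the authors' signal per peak. Filled red points are optimal peaks and open blue points other pooled peaks, the dotted line is the lowest optimal signal (37.02), and annotated transcripts with exons as boxes are drawn under each panel. The optimal peaks of rgef-1 and maco-1 lie upstream of the gene, and those of unc-119 and unc-33 inside it.

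The genes differed in where the peaks lay. The 3 optimal summits of rgef-1 and maco-1 were upstream of the gene, and the 3 of unc-119 and unc-33 were within it. Over all genes, 14.2% had an optimal summit in the 5000 bp upstream and 3.40% had one between gene start and gene end. The unc-119 and unc-33 genes are long, at 6295 and 9717 bp, whereas the median window with its 5000 bp upstream is 7027 bp. No share was computed for genes of such length, so the 3.40% is not a matched background for these genes. In a narrower promoter window that began 1000 bp before the gene start and ended 200 bp after it, rgef-1 and maco-1 had an optimal summit, against 6.38% of all genes. When the start of any annotated transcript was allowed, a choice made after the positions were seen, unc-33 was added and the share over all genes was 7.14%. For all 6 optimal summits, no other protein-coding gene started closer than the marker gene itself.

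At rgef-1 (WBGene00009100, chromosome V, 9556027 to 9561674, minus strand), both optimal summits lay in intergenic sequence upstream of the gene. The nearer peak (9561843 to 9562218) had its summit 357 bp upstream and a pooled signal of 161. Its signal was 96.3 in replicate 1, where it ranked 75 of 28842 peaks, and 64.8 in replicate 2, where it ranked 184 of 28896. It was the strongest peak at any of the 4 genes in the pooled list and in both replicates, and ranked 93 of 19924 pooled peaks.

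The second rgef-1 peak (9563612 to 9563987), with its summit 2126 bp upstream, had a pooled signal of 104.4 and ranked 412. It was the least even between replicates, with a signal of 68.2 and rank 208 in replicate 1 and a signal of 34.4 and rank 981 in replicate 2. No further pooled summit lay in the rgef-1 window, so both of its pooled peaks belonged to the optimal set. The gene body held 1 summit of replicate 1 and 2 of replicate 2, with signals from 7.14 to 10.2, and none of these was in the pooled list.

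The maco-1 gene (WBGene00017066, chromosome I, 6598982 to 6607520, minus strand) has 1 annotated transcript, and its optimal peak (6607983 to 6608358) was centred 651 bp upstream of it. The pooled signal was 93.9, at rank 521. The peak had a signal of 56.0 and rank 430 in replicate 1, and a signal of 38.4 and rank 784 in replicate 2. As at rgef-1, the rank was higher in replicate 1. A weaker pooled summit 865 bp upstream, with a signal of 19.5 at rank 6833, lay in the non-coding RNA gene D2092.13 and was found in both replicates, with signals of 15.5 and 10.6. Another pooled summit, 1763 bp upstream, had a signal of 13.6 and no summit within 100 bp in either replicate. No pooled summit lay inside maco-1.

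The unc-119 gene (WBGene00006843, chromosome III, 10902641 to 10908935, plus strand) has 3 annotated transcripts with different starts. Its optimal peak (10903158 to 10903533) was centred 705 bp downstream of the gene start, in the first intron of the longest transcript, M142.1c.1. That intron is 3747 bp long. The same summit lay 3110 bp upstream of the start of the next transcript, M142.1a.1, and 4252 bp upstream of that of M142.1b.1. The pooled signal was 60.9, at rank 1297, close to the median of the optimal set (60.7). The replicates were close, with a signal of 34.4 and rank 1216 in replicate 1 and a signal of 27.5 and rank 1434 in replicate 2.

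The unc-119 window held 4 further pooled summits below the optimal threshold. The strongest, 2728 bp downstream of the gene start and in the same intron, had a signal of 28.4 at rank 3626. It was matched in both replicates, with a signal of 13.1 in replicate 1 and 16.1 in replicate 2. The other 3 had signals from 15.2 to 21.1 and a summit within 100 bp in replicate 2 but not in replicate 1. Among them was a summit 74 bp downstream of the start of M142.1a.1, with a signal of 21.1. There, replicate 1 did have an overlapping peak, with its summit 68 bp upstream of that start and thus outside the 100 bp rule. Its signal was 10.9, at rank 13299, whereas the matched summit of replicate 2 had a signal of 7.24 at rank 12749.

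Since the rescue fragment carries unc-119, reads from the transgene and from the native gene cannot be told apart, and the part of the added copies in these peaks was not tested. From 20000 bp before to 20000 bp after the gene, unc-119 had 1 optimal and 10 pooled summits. The same span held 2 optimal and 10 pooled summits around maco-1, and 2 and 8 around unc-33. Around rgef-1 there were 5 optimal and 11 pooled summits. Among the 4 genes, unc-119 thus had the fewest optimal summits in this span, and its pooled density, 0.22 per kb, lay between those of unc-33 (0.16) and rgef-1 (0.24), beside 0.20 over the whole genome. The replicates differed. In replicate 1 the density around unc-119, 0.26 per kb (12 summits), was the lowest of the 4 genes, which reached 0.46, and the whole genome had 0.29. In replicate 2 it was 0.50 per kb (23 summits), the highest of the 4, which began at 0.27, and the whole genome again had 0.29. Around fkh-10, the tagged gene, there were 0 optimal and 1 pooled summits. In the narrower gene window, unc-119 had the highest pooled density of the 4 genes, 0.44 per kb. The values were 0.41 at unc-33, 0.22 at maco-1 and 0.19 at rgef-1, and 0.19 over all genes. The optimal density of unc-119 in that window, 0.09 per kb, was below those of rgef-1 (0.19) and unc-33 (0.14) and above that of maco-1 (0.07).

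The unc-33 gene (WBGene00006769, chromosome IV, 3516886 to 3526602, plus strand) also has 3 transcripts with staggered starts, and its peaks lay near or downstream of the start of the shortest, Y37E11C.1c.1. The stronger optimal peak (3520992 to 3521367) was centred 4294 bp downstream of the gene start. This position is in an intron of 3194 bp that all 3 transcripts share and that is the first intron of the shortest one. Its pooled signal was 53.1, at rank 1618, with a signal of 32.8 and rank 1324 in replicate 1 and a signal of 24.6 and rank 1699 in replicate 2.

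The weaker optimal peak of unc-33 (3519378 to 3519753) had its summit 2680 bp downstream of the gene start. The summit was in a coding exon of the longer transcripts, 118 bp upstream of the start of Y37E11C.1c.1, and it also fell in the upstream window of the divergent gene tsg-101. Its pooled signal was 39.4, at rank 2396, and it was the weakest of the 6. The replicate signals were 21.6 in both, at rank 2609 in replicate 1 and 2026 in replicate 2.

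One further unc-33 summit, 951 bp upstream of the start of the longest transcript, fell just below the optimal threshold. This intergenic summit also lay in the upstream window of tsg-101, although the start of unc-33 was the nearest gene start. Its pooled signal was 34.8, at rank 2814, whereas the lowest optimal signal was 37.02. The replicates differed at this site, with a signal of 14.8 and rank 5832 in replicate 1 and a signal of 26.6 and rank 1510 in replicate 2. In replicate 2 it was the highest-ranked unc-33 summit, ahead of both optimal ones. The other 3 pooled summits of the unc-33 window had signals from 12.4 to 18.04. In all, 6 pooled summits lay in this window.

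The number of pooled summits differed between the 4 windows, from 2 at rgef-1 and 3 at maco-1 to 5 at unc-119 and 6 at unc-33. Over all protein-coding genes, as many were found in 40.8% of windows for rgef-1, 20.6% for maco-1, 5.64% for unc-119 and 3.24% for unc-33. Among genes with windows of similar length the shares were 69.0%, 46.3%, 17.3% and 9.11% in the same order.

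Each of the 6 optimal summits had a summit within 100 bp in both replicates, as did 94.7% of all optimal peaks. The optimal set was itself chosen by an IDR threshold on these data, so such a match is not independent of that choice. At 5 of the 6, both matches were among the 2602 highest-signal peaks of their replicate, a number equal to the size of the optimal set. The sixth was the weaker unc-33 peak, at rank 2609 in replicate 1. Over all optimal peaks the share was 68.1%. The ratio of the signal in replicate 1 to that in replicate 2 was 1.00 and 1.33 at unc-33, 1.25 at unc-119, 1.46 at maco-1 and 1.49 and 1.98 at rgef-1. Over all optimal peaks matched in both replicates the median ratio was 1.14, and the 5th and 95th percentiles were 0.55 and 2.35. All 6 values lay within that range.

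**Figure D2:**
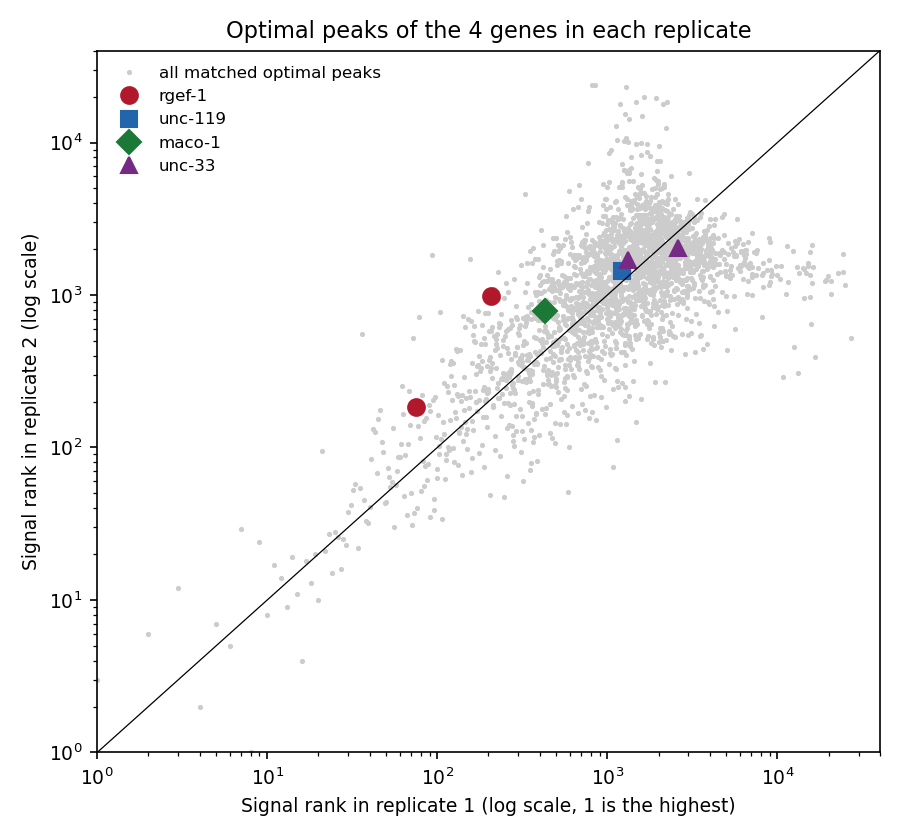
Signal rank in replicate 1 against that in replicate 2, both on log scales, for all matched optimal peaks (grey) and for the 6 optimal peaks of the 4 genes (coloured), with a line at equal rank. Both rgef-1 peaks and the maco-1 peak lie above the line, with higher ranks in replicate 1, and the unc-119 and unc-33 peaks lie close to it.

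In order of the strongest pooled signal the genes were rgef-1 (161), maco-1 (93.9), unc-119 (60.9) and unc-33 (53.1). Over all protein-coding genes, the shares with an optimal summit at least as high in their window were 0.771% for rgef-1, 3.83% for maco-1, 8.98% for unc-119 and 11.0% for unc-33. Among genes with windows of similar length the shares were 0.776%, 7.50%, 16.9% and 20.4% in the same order. The order from the best-ranked summit in each window was the same in replicate 1, with ranks 75, 430, 1216 and 1324, and in replicate 2, with ranks 184, 784, 1434 and 1510. The best rank of unc-33 in replicate 2 came from the summit 951 bp upstream, outside the optimal set. Within each replicate unc-119 ranked ahead of unc-33, but the ranks of these neighbours overlapped across replicates. With 2 replicates, and different unc-33 summits behind its 2 ranks, a difference between them was not tested. The ranks of rgef-1 and of maco-1 did not overlap with each other or with those of the other genes.

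The summit windows were searched on both strands for the forkhead words TGTTTAC and TAAACA, for CACGTG, for GAGAGAGA, and for ATCGAT and ATTGAT, letters that CUT homeodomain proteins bind. TAAACA is read on the opposite strand as TGTTTA, so every match to TGTTTAC also holds it. Neither forkhead word was present within 50 bp of any of the 6 summits. Over all 2602 optimal windows the shares were 1.61% for TGTTTAC and 4.69% for TAAACA. The word ATCGAT was present once, at the rgef-1 summit 357 bp upstream, where it began 2 bp before the summit. It was found in 3.69% of all optimal windows. GAGAGAGA was present in the maco-1 window and in 6.69% of all. Neither CACGTG nor ATTGAT occurred at any of the 6 summits, against 2.42% and 4.07% of all. A match is a description of the letters and does not show a bound site.

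Outside the words searched, the longest stretch shared by windows of different genes was GCTTCTCTTC, at 10 bases. It lies just downstream of the nearer rgef-1 summit and of the unc-119 summit, on the strand of the gene in both, as the capitals above show. These 2 windows were the only ones of the 2602 that held it on either strand. The stretch was picked from these windows after they were read, with maco-1 left out of the search, so its rarity elsewhere is no support for a shared site. The next longest was GTCTCTTTT, at 9 bases, shared by the farther rgef-1 window and unc-119 and present in 26 of the 2602 windows. G and C made up from 37.6% of the bases at unc-119 to 53.5% at the stronger unc-33 peak, around the median of 45.5% over all optimal windows.

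Other genes active throughout the nervous system were taken from a list of 23, mainly genes of synaptic vesicle release, neuropeptide processing and axonal transport. Of these, 21 (91.3%) had an optimal summit in the same kind of window, against 16.5% of all protein-coding genes. Among genes with windows of similar length to the markers the share was 28.9%. The windows of the 23 listed genes ranged in length from 5940 bp at snb-1 to 36332 bp at unc-13. Many lay outside the range of the markers, so the 28.9% is not a matched background for this list. In the promoter window 10 of the 23 had a summit, against 6.38% of all genes. The strongest summit was nearer to the start of another protein-coding gene at 3 of the 21, ric-4 (nearer to Y22F5A.11), unc-18 (stn-2) and snt-1 (F31E8.5), and that of snt-1 had no match in replicate 2. The highest signal, 183, was at unc-108, which encodes the GTPase Rab2, 44 bp upstream of the gene start. Next was egl-3, a proprotein convertase gene of neuropeptide processing, with a signal of 165 at 1139 bp upstream. The third was unc-10, which encodes the active zone protein RIM, with a signal of 157 at 4559 bp upstream. The 2 without an optimal summit were the synaptogyrin gene sng-1 and the synaptojanin gene unc-26, where the strongest pooled signals were 35.7 and 22.6. With the highest-signal peaks of replicate 1 alone the count was 20 of 23, against 15.9% of all genes. With those of replicate 2 alone it was 21, against 16.7% of all genes.

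Among these genes, rgef-1 lay between egl-3 (165) and unc-10 (157) in strongest optimal signal. The genes nearest to maco-1 were ric-4, the SNAP-25 gene, with 95.7 at a summit 3676 bp upstream, and the kinesin gene unc-104 with 95.8. Those nearest to unc-119 were the endophilin gene unc-57 with 61.9 and ric-19 with 59.5. Those nearest to unc-33 were nsf-1, which encodes the fusion factor NSF, with 51.4, and ehs-1, an endocytosis gene, with 47.9. Likeness here is the difference in 1 pooled signal value and covers no other feature of the genes. The 4 genes were spread along the list and did not form its upper or lower end.

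**Figure D3:**
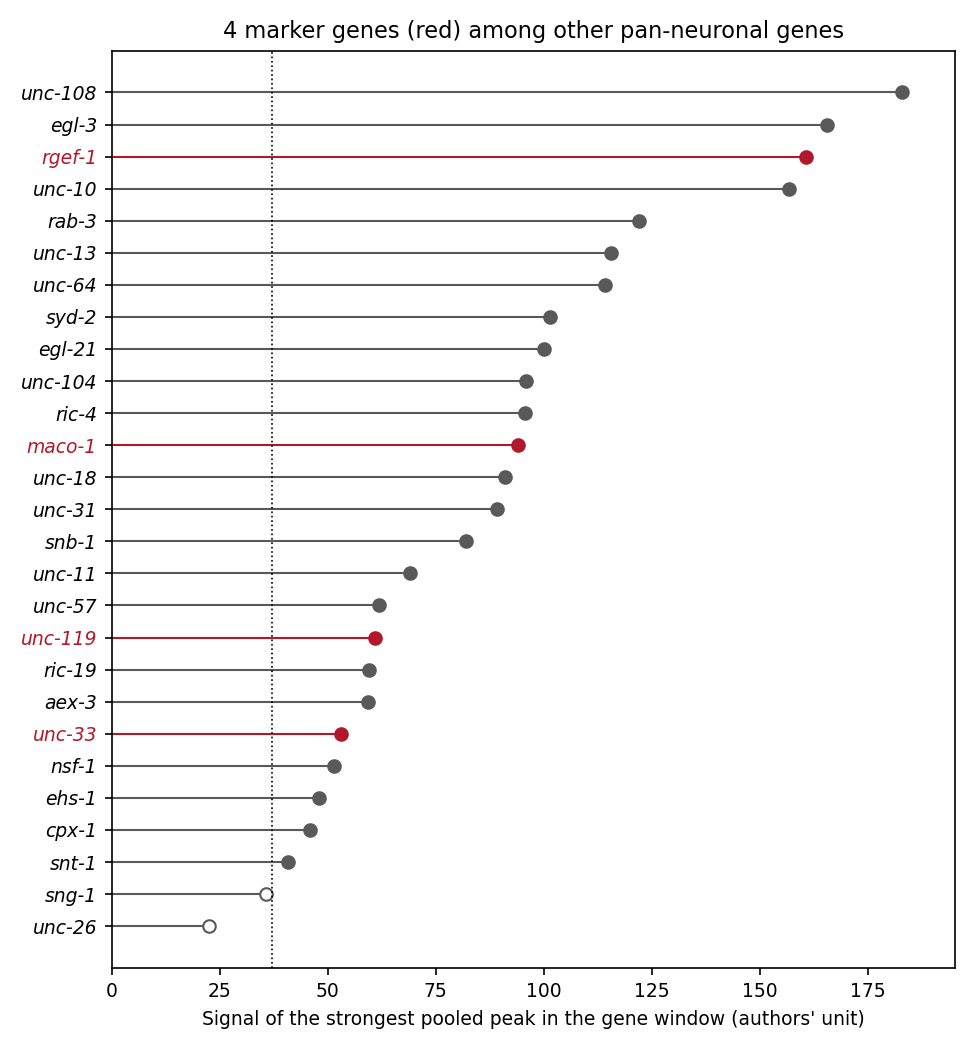
Signal of the strongest pooled peak in the window of each gene, for the 4 marker genes (red) and the 23 other pan-neuronal genes (black). Filled points are optimal peaks and open points are not, and the dotted line is the lowest optimal signal; rgef-1 is near the top, and unc-119 and unc-33 are in the lower part.

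Genes linked by function or family to rgef-1, unc-33 and unc-119 were also examined, and no such list was made for maco-1. Of 7 genes of microtubule anchoring, axon growth and the CRMP family, 5 (71.4%) had an optimal summit, against 16.5% of all genes. The share was 28.9% among genes with windows of similar length to the markers. The windows of this list ran from 7654 bp at dhp-2 to 34301 bp at unc-44, so the 28.9% is not a matched background for it. The ankyrin gene unc-44 had a signal of 102 at 1242 bp upstream. The axon growth gene unc-14 had a signal of 70.8 at 88 bp upstream. The tau-like gene ptl-1 had a signal of 67.6 at 638 bp upstream. Both dhp-1 and dhp-2, paralogs of unc-33, had none. No pooled summit was listed at dhp-1, and the strongest at dhp-2 had a signal of 17.3. The unc-44 peak was stronger than any peak of unc-33 or unc-119 in the pooled list and in both replicates, where it had signals of 58.1 and 45.7.

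Of 9 genes of Ras and Rap signalling, to which rgef-1 belongs by function, 3 (33.3%) had an optimal summit, against 16.5% of all genes. The share was 28.9% among genes with windows as long as those of the markers. Several windows of this list lay outside that range, from 7490 bp at ras-2 upward, so the 28.9% is not a matched background for it. The ERK gene mpk-1 had a signal of 101, with its summit 4286 bp inside the gene. The Ras gene let-60 had a signal of 70.9 at 1235 bp upstream. The exchange factor gene sos-1 had a signal of 45.0, with a summit 22017 bp inside that gene, nearer to the start of T28F12.1 and without a match in replicate 2. The sos-1 window is 37348 bp long. The promoter window held a summit at 0 of the 9, where the share over all genes was 6.38%, so a count of 0 in a list of this length is close to the background. The rap-1 and rap-2 genes, which encode Rap GTPases, had none, with strongest pooled signals of 34.1 and 29.5.

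Of 7 CUT homeobox genes, 6 were found in the annotation by symbol, and 4 of these (66.7%) had an optimal summit, against 16.5% of all genes. The peak at ceh-38 had a signal of 104.3, with its summit 77 bp downstream of the gene start. That at ceh-48 had a signal of 104.2, with its summit 2156 bp upstream. The windows of ceh-39 and ceh-21 shared a summit with a signal of 70.5, which lay 256 bp upstream of ceh-39 and 3692 bp upstream of ceh-21, so the 4 genes do not have 4 separate strongest summits. No optimal summit was found at ceh-41 or ceh-49. These lists overlap in function with the marker genes, and their members were not drawn independently of earlier results on these peaks.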

How the data were processed

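Only the 4 ce11 peak lists were used: 1 per replicate (28842 and 28896 peaks), 1 pooled (19924) and the optimal set (2602). Per the deposited text files, the lists were derived from alignments and a control file; no peak caller, version or IDR cut-off is named there. The signal per peak is the authors' deposited value, its scale is not stated, and it served for ranks and descriptions inside each list. The deposited −log10 q column was read and not used for ranking. All 2602 optimal peaks were the highest-signal pooled peaks. The deposited lists on ce10 were not used, because positions were not converted.

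Summits are column 2 plus column 10, given 1-based. The gene models were those of Ensembl 115 for WBcel235, which shares its coordinates with ce11. Replicate summits were matched within 100 bp. Counting used Python 3.11.15 with pandas 2.3.3 and was tested on simulated summits. The named genes are the 4 markers, fkh-10, genes at their optimal summits, and the 3 strongest genes of each list, plus the 2 pan-neuronal genes nearest in signal to each marker; other list genes were named after their values were seen. The members and lists were chosen with earlier results of these data known. Alternatives covered peak lists, single replicates, windows and matching rules.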

Additional observations from a re-analysis of the deposited data

How the results depend on the processing

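Of 86 alternative values, 71 stayed within 1.5 times the reported count or within the spread between replicates, and 15 did not. This split is not a measure of robustness. Shorter upstream windows could not remove the strongest summit of any gene, and single-replicate ranks were judged by the spread of those same ranks. The number of genes with a summit stayed at 4 in all but 2 of the alternatives to the peak set and the window. Several of these alternatives could not lower that number. The pooled list holds every optimal peak, and the longer upstream window holds the reported one. A peak with its summit in a window also overlaps that window. An unchanged count under these settings therefore says nothing about stability. With the gene body left out (5000 bp upstream to 200 bp downstream of the gene start), 2 genes and 3 summits remained, with 0 at unc-119 and 0 at unc-33. With optimal peaks at or above the median signal, 3 genes remained and unc-33 had 0. The share over all genes was not computed for either of these settings, so the member counts stand without a background. The number of summits also changed where all 4 genes kept one. With all pooled peaks the 6 summits became 16, with 5 at unc-119, 3 at maco-1 and 6 at unc-33. With 1000 or 2000 bp upstream, rgef-1 had 1 summit. With the highest-signal peaks of a single replicate, unc-33 had from 1 summit (replicate 1) to 3 (replicate 2), so the number at this gene depends on the replicate. Single-replicate ranks of the strongest summit ran from 75 to 184 at rgef-1, from 430 to 784 at maco-1 and from 1324 to 1510 at unc-33. Within 50 bp, 5 of 6 summits matched in both replicates. Depth is unknown, so a site that is missing from a list may be below its reach. No paired analysis was possible because the replicates form 1 group.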
